A study of Mus musculus with 8 samples.

Results

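Interferon-γ is the cytokine that defines type 1 helper (Th1) T cells, and the results below describe its gene Ifng with 5 transcription factors known to act on it: Tbx21, Eomes, Runx3, Hlx and Stat4. The genes were chosen by name, as probesets that the platform annotation pairs with exactly 1 symbol, and all 6 of 6 were found among 19938 measured genes, each with 1 probeset. Earlier results of these data were known when they were chosen. Each of 8 arrays, 2 per group, read the RNA of one culture of mouse helper T cells (CD4+). The groups were Th1 Tet2-/-, Th1 wild-type, Th17 Tet2-/- and Th17 wild-type, all on a C57BL/6 background. Naive cells (CD25-, CD62L high, CD44 low) sorted from spleen and lymph node were stimulated through CD3 and CD28 in every group. Th1 cultures of both genotypes received IL-12 at 10 ng/ml, antibody to IL-4 at 5 µg/ml and IL-2 at 30 U/ml. Th17 cultures of both genotypes received 0.5 ng/ml TGF-β1 and 10 ng/ml IL-6, with antibodies to interferon-γ and IL-4 at 5 µg/ml each. The labels leave it unstated if IL-1β or IL-23 was also used. Tet2 is a dioxygenase that oxidises 5-methylcytosine in DNA, and the series title asks how this demethylation bears on T cell cytokines. The labels give the genotype as Tet2-/- with no allele or Cre driver, and do not say whether the 2 cultures of a group came from separate mice, so the p-values measure the spread between these cultures.

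In Th1 differentiation, IL-12 signals through its receptor to phosphorylate Stat4, and T cell receptor and interferon-γ signals induce Tbx21, which encodes T-bet. T-bet binds the Ifng locus together with Runx3, Hlx is a homeobox factor that T-bet induces, and Eomes is the T-box relative of T-bet that drives Ifng in CD8 T and NK cells. In Th17 cells, which make interleukin 17, this program is normally low.

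The cell type labels were checked first. All 7 measured CD4 T cell markers of 8 listed, Cd4 and Cd3e among them, lay on every array above the 95th percentile of 1027 olfactory receptor genes (6.50 to 6.99 log2 units), which stand here for genes with no known role in helper T cells. Of other lymphoid and myeloid markers, both CD8 genes, all 5 measured NK genes of 7 listed and all 5 myeloid genes lay at or below that percentile on every array, as did 2 of the 3 measured B cell genes of 4 listed. The summed log2 level of Cd8a and Cd8b1 ran from 12.6 to 13.1 in Th1 Tet2-/-, 12.9 to 13.1 in Th1 wild-type, 12.6 to 12.7 in Th17 Tet2-/- and 12.5 to 12.7 in Th17 wild-type cells. Of 6 listed Th17 markers 5 were measured, Il17a and Il17f among them, and all 5 were lower in Th1 than in Th17 cells of each genotype. The Tet2 probeset read 8.12 and 7.97 log2 units in Th1 Tet2-/- and 8.14 and 8.03 in Th1 wild-type cells, and its position relative to the deleted part is not known here, so it checks no genotype. The Th17 arrays differed in sex-linked transcripts: Xist, the RNA of the inactive X chromosome, read 8.62 and 11.3 log2 units in Th17 Tet2-/- replicates 1 and 2 and 5.20 and 10.1 in Th17 wild-type replicates 1 and 2, against 4.83 to 5.11 on the 4 Th1 arrays. For the 6 genes, genotype differences in Th17 cells are therefore also given without the Th17 arrays of the lowest and highest Y-linked level (Tet2-/- replicate 2 and wild-type replicate 1). The Th1 minus Th17 differences of all but Stat4 are given so too. So are the Ifng and Tbx21 values for how the genotype difference differed between cell types. Orders of group means, similar profiles, lists and neighbours are given on all arrays only. The part of the sex-linked transcripts in them was not tested.

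Ifng was the gene that fell most in Tet2-/- Th1 cells. It read 10.43 and 10.18 log2 units in Th1 Tet2-/- cells, against 11.56 and 11.89 in Th1 wild-type cells. Both Tet2-/- arrays lay more than 1 log2 unit below both wild-type arrays. Ifng thus fell 2.68-fold, a log2 difference of -1.42 with an SE of 0.14 and a 95% confidence interval of -1.72 to -1.12 (adjusted p = 0.00391, limma's moderated test). On the linear scale the Tet2-/- level was 37.3% of the wild-type level (interval 30.3% to 45.9%). In bulk RNA, fewer cells making interferon-γ and less Ifng RNA per cell cannot be told apart. Over all 19938 genes Ifng had both the lowest log2 difference and the smallest p, and 0.00502% of genes were called (1 gene), so Ifng was the 1 of the 6 genes called. The summed level of the 5 NK genes was also lower in Tet2-/- Th1 cells (24.2 to 24.8, against 25.2 to 25.4 in wild-type), with none of them called and each at or below the olfactory receptor percentile on every array. The call ended without Th1 Tet2-/- replicate 2 (-1.30, adjusted p = 0.128) and without Th1 wild-type replicate 2 (-1.26, adjusted p = 0.0685). In all it held in 15 of 21 alternatives, and it also ended without the 2 Th17 arrays named above, which enter only the estimate of spread (-1.42, adjusted p = 0.0838).

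The window around the annotated start of Ifng is shown because methylation of CpG sites is what Tet2 acts on, and that of Tbx21 because it encodes the leading activator of Ifng. Each runs from 250 bases before to 50 after the start, 5′ to 3′ on the gene's strand, from RefSeq on GRCm38.p6, with each CpG in capitals. The Ifng window lies on the plus strand at chr10:118440796-118441095 and the Tbx21 window on the minus strand at chr11:97115282-97115581.
Ifng: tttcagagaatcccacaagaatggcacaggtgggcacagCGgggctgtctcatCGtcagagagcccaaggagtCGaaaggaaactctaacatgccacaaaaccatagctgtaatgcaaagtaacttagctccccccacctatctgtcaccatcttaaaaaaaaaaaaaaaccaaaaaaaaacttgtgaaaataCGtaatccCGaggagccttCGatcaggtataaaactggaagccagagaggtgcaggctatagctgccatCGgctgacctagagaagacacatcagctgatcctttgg
Tbx21: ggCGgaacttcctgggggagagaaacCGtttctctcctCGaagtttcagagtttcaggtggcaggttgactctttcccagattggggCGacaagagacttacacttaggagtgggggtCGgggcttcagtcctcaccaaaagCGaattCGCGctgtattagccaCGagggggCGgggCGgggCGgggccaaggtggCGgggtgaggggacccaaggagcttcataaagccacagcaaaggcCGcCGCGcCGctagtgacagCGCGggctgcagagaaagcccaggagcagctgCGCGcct
The Ifng window holds 7 CpG sites, equal to the median over 32851 promoter windows, and the Tbx21 window 21. Counted from the start site, the C of the Ifng sites stands at -211, -197, -177, -57, -49, -38 and 13. The Eomes window holds 10 sites and that of Hlx 14, and Runx3 and Stat4 have 2 annotated windows each, with 8 and 45 for Runx3 and 2 and 4 for Stat4. The arrays hold no methylation measurement, so no site is tied to a level here. Of motifs searched on both strands, GGTGTG (a T-box core) was in none of the 8 windows of the 6 genes and in 19.0% of all windows. TGTGGT (a Runx core) was found at 2 places in 1 Runx3 window and in 16.8% of all windows. TTCNNNGAA, the form of site that Stat factors bind, was in the Ifng window at -249 and in 8.30% of all windows.

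**Figure D1:**
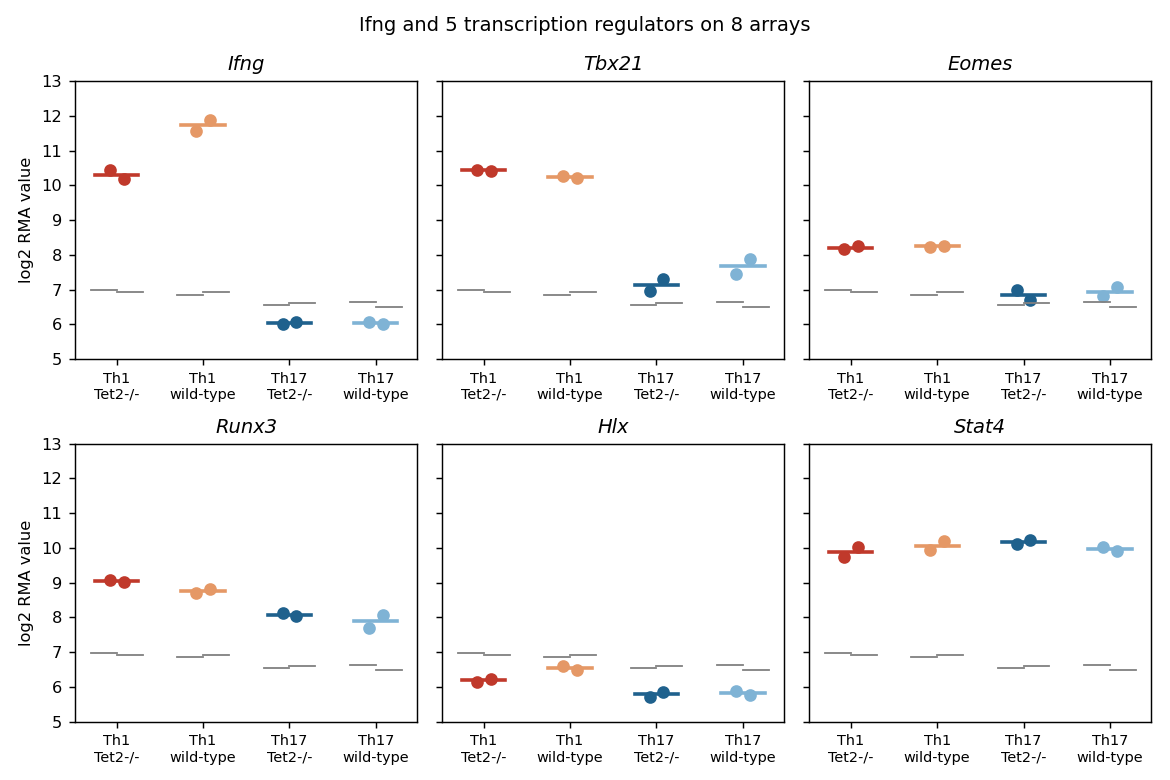
Log2 RMA value of each gene on the 8 arrays (points), with group means (coloured bars), for Th1 Tet2-/-, Th1 wild-type, Th17 Tet2-/- and Th17 wild-type cells; short grey lines mark the 95th percentile of olfactory receptor genes on each array. Ifng is lower on both Tet2-/- Th1 arrays (10.43 and 10.18) than on both wild-type Th1 arrays (11.56 and 11.89), and in Th17 cells it lies below the grey lines.

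The transcription factors did not pass the test in Th1 cells. Tbx21 read 10.44 and 10.42 log2 units in Th1 Tet2-/- cells and 10.27 and 10.20 in Th1 wild-type cells, a log2 difference of 0.20 (SE 0.16, 95% interval -0.15 to 0.54, adjusted p = 0.912). Runx3, a runt-domain factor that acts with T-bet and also silences Il4, read 9.08 and 9.01 in Th1 Tet2-/- cells and 8.70 and 8.82 in Th1 wild-type cells (0.29, SE 0.14, interval -0.01 to 0.59, adjusted p = 0.853). For both genes the 2 Tet2-/- arrays lay above the 2 wild-type arrays, the opposite side from Ifng. Stat4, the transducer of IL-12, read 9.74 and 10.03 in Th1 Tet2-/- cells and 9.94 and 10.19 in Th1 wild-type cells (-0.18, SE 0.14, interval -0.49 to 0.13, adjusted p = 0.907). Eomes read 8.17 and 8.24 in Th1 Tet2-/- cells and 8.23 and 8.26 in Th1 wild-type cells (-0.04, SE 0.13, interval -0.33 to 0.25, adjusted p = 0.985). The genotypes overlapped for Stat4 and Eomes.

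Among the 6 genes, Hlx was the regulator with the smallest p in Th1 cells. It read 6.16 and 6.23 log2 units in Th1 Tet2-/- cells and 6.59 and 6.50 in Th1 wild-type cells, a log2 difference of -0.35 (SE 0.11, 95% interval -0.58 to -0.12, unadjusted p = 0.00686, adjusted p = 0.824 in limma's test). Both Tet2-/- arrays lay below both wild-type arrays, as for Ifng. All of these levels lay under the 95th percentile of olfactory receptor genes, so a difference in Hlx may be compressed on this array. In all, 4 of the 6 genes did not overlap between genotypes in Th1 cells, Ifng and Hlx lower and Tbx21 and Runx3 higher, where 32.7% of all genes did not overlap in either direction. The lowest interval bound of any regulator among the 6 genes was -0.58, for Hlx, and the whole interval of Ifng lay below it.

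**Figure D2:**
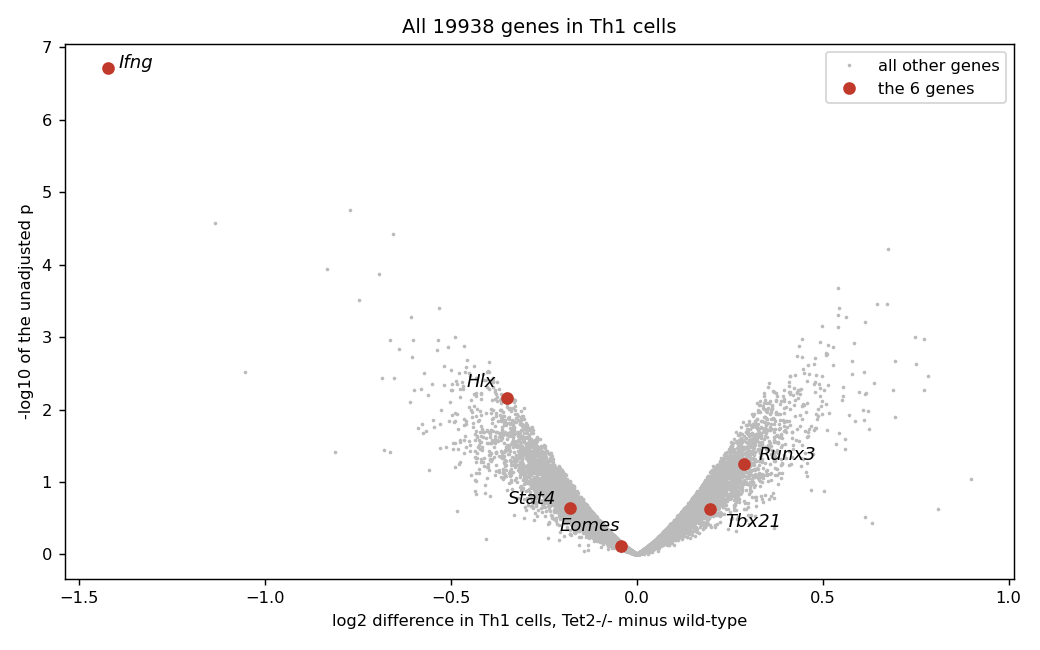
Log2 difference between Tet2-/- and wild-type Th1 cells (horizontal axis) against -log10 of the unadjusted p from limma (vertical axis) for all genes (grey) and the 6 genes described (red). Ifng stands at -1.42 apart from all other genes, Hlx at -0.35 lies on the lower side, and Runx3 at 0.29 and Tbx21 at 0.20 lie on the higher side.

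In Th17 cells none of the 6 genes was called by limma, beside 0% of all genes, with 848 genes at an unadjusted p under 0.05 and Tbx21 the 1 of the 6 among them. Ifng read 6.00 and 6.06 log2 units in Th17 Tet2-/- cells and 6.07 and 6.01 in Th17 wild-type cells, a log2 difference of -0.01 (SE 0.14, 95% interval -0.31 to 0.29, adjusted p = 0.999). These levels stood above 83.7% of olfactory receptor genes in Th17 Tet2-/- cells and above 84.9% in Th17 wild-type cells, under the 95th percentile on every Th17 array, where differences are compressed by background signal. Tbx21 had the largest difference in size of the 6 genes: it read 6.95 and 7.31 in Th17 Tet2-/- cells and 7.46 and 7.89 in Th17 wild-type cells (-0.54, SE 0.16, interval -0.89 to -0.20, unadjusted p = 0.00486, adjusted p = 0.764 in limma's test). Both Tet2-/- arrays lay below both wild-type arrays. Without the 2 Th17 arrays of extreme Y-linked level the Tbx21 difference was -0.94 (adjusted p = 0.740, 1 array per Th17 group), and without Th17 wild-type replicate 2 it was -0.33 (adjusted p = 1.00).

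The other regulators differed less in Th17 cells. Stat4 read 10.13 and 10.22 log2 units in Th17 Tet2-/- cells and 10.03 and 9.92 in Th17 wild-type cells (0.20, SE 0.14, 95% interval -0.11 to 0.50), with no overlap. Runx3 read 8.12 and 8.05 in Th17 Tet2-/- cells and 7.70 and 8.07 in Th17 wild-type cells (0.20, SE 0.14, interval -0.10 to 0.49). Eomes read 7.001 and 6.69 in Th17 Tet2-/- cells and 6.81 and 7.06 in Th17 wild-type cells (-0.09, SE 0.13, interval -0.38 to 0.20), and its sign turned in 3 alternatives. Hlx read 5.71 and 5.86 in Th17 Tet2-/- cells and 5.88 and 5.77 in Th17 wild-type cells (-0.04, SE 0.11, interval -0.28 to 0.19). The adjusted p was 0.999 for each of these 4 genes. In all, 2 of the 6 genes, Tbx21 and Stat4, did not overlap between genotypes, beside 33.2% of all genes. Without the 2 Th17 arrays of extreme Y-linked level the log2 difference was -0.02 for Ifng, 0.20 for Stat4, 0.05 for Runx3, -0.06 for Eomes and -0.06 for Hlx.

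**Figure D3:**
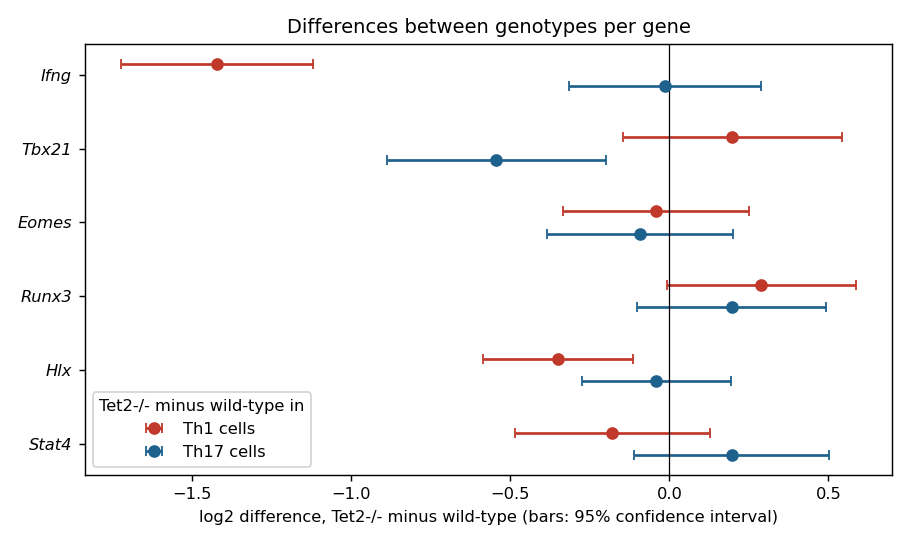
Log2 difference, Tet2-/- minus wild-type, for each gene in Th1 cells (red) and in Th17 cells (blue), with 95% confidence intervals from limma. Ifng in Th1 cells is at -1.42 (-1.72 to -1.12), and Tbx21 lies at 0.20 in Th1 cells and at -0.54 in Th17 cells.

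Whether the genotype difference itself differed between the cell types was tested as an interaction, and 0 of the 6 genes passed in limma, beside 0% of all genes, with 908 genes at an unadjusted p under 0.05 and Ifng and Tbx21 among them. For Ifng the Th1 difference minus the Th17 difference was -1.41 (SE 0.20, 95% interval -1.83 to -0.98, adjusted p = 0.150), the smallest p of all genes. The Th17 part of that value is -0.01, measured at levels within the range of olfactory receptor genes. Without the 2 Th17 arrays of extreme Y-linked level it was -1.41 (adjusted p = 0.776). For Tbx21 it was 0.74 (SE 0.23, interval 0.25 to 1.23, unadjusted p = 0.00609, adjusted p = 0.999), with the 2 genotypes apart in opposite directions in the 2 cell types. Of all genes, 4.82% were apart in opposite directions in this way, and Tbx21 was the 1 such gene of the 6. The values were -0.38 for Stat4, -0.31 for Hlx, 0.09 for Runx3 and 0.05 for Eomes, each with an adjusted p = 0.999.

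Th1 cells were then compared with Th17 cells within each genotype. Of the 6 genes, 5 were higher in Th1 Tet2-/- than in Th17 Tet2-/- cells, where 3.29% of all genes were called higher. The same 5, all but Stat4, were higher in Th1 wild-type than in Th17 wild-type cells, where 3.17% were. Ifng stood at a log2 difference of 4.28 (SE 0.14, adjusted p = 3.93e-09), 19.4-fold, in Tet2-/- cells. In wild-type cells it led the contrast of all genes at 5.68 (SE 0.14, adjusted p = 2.35e-10), 51.4-fold. These 2 folds are measured against Th17 levels inside the range of olfactory receptor genes and may be too small. In Th1 Tet2-/- cells Ifng still stood 4.26 log2 units above Th17 wild-type cells (adjusted p = 8.19e-09, beside 3.64% of genes called higher).

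Tbx21 was higher by 3.30 log2 units in Th1 than in Th17 Tet2-/- cells (SE 0.16, adjusted p = 1.06e-07) and by 2.56 in Th1 than in Th17 wild-type cells (SE 0.16, adjusted p = 1.13e-06). Eomes was higher by 1.36 in the Tet2-/- pair (SE 0.13, adjusted p = 4.76e-05) and by 1.31 in the wild-type pair (SE 0.13, adjusted p = 7.67e-05). Both T-box genes were thus called in each genotype. Runx3 was higher by 0.96 in the Tet2-/- pair (SE 0.14, adjusted p = 0.000741) and by 0.87 in the wild-type pair (SE 0.14, adjusted p = 0.00193). Hlx was higher by 0.41 in the Tet2-/- pair (SE 0.11, adjusted p = 0.0301) and by 0.72 in the wild-type pair (SE 0.11, adjusted p = 0.00136). Hlx lay under the olfactory receptor percentile on every array, and that percentile was higher on Th1 arrays. It read 6.99 and 6.92 in Th1 and 6.55 and 6.62 in Th17 Tet2-/- cells. In wild-type cells it read 6.85 and 6.92 in Th1 and 6.65 and 6.50 in Th17. Hlx stood above 78.3% of olfactory receptor genes in Th1 and 75.4% in Th17 Tet2-/- cells. In wild-type cells these shares were 89.3% and 78.9%. The part of background in the Hlx differences was not tested. The Hlx call in Tet2-/- cells held in 10 of 20 alternatives (adjusted p 0.0184 to 0.229) and ended without any one of the 4 Tet2-/- arrays. Stat4 showed no lineage difference that passed: -0.29 in the Tet2-/- pair (SE 0.14, 95% interval -0.59 to 0.02, adjusted p = 0.238) and 0.09 in the wild-type pair (SE 0.14, interval -0.22 to 0.40, adjusted p = 0.750). Without the 2 Th17 arrays of extreme Y-linked level, the Tet2-/- and wild-type differences were 4.31 and 5.71 for Ifng, 3.48 and 2.34 for Tbx21, 1.20 and 1.18 for Eomes, 0.93 and 0.68 for Runx3 and 0.48 and 0.77 for Hlx. These fits keep 1 array per Th17 group, with Xist at 8.62 log2 units in Tet2-/- and 10.1 in wild-type cells. On the Th1 arrays Xist read 4.83 to 5.11. Lineage and sex-linked transcripts thus cannot be told apart in these values.

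**Figure D4:**
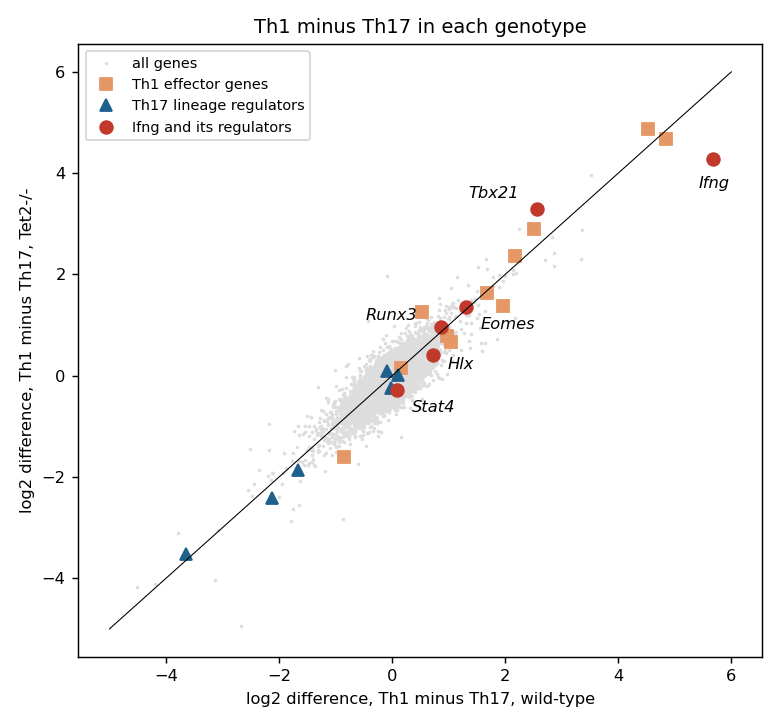
Log2 difference, Th1 minus Th17, in Tet2-/- (vertical axis) and wild-type cells (horizontal axis), for all genes (grey), Ifng and its regulators (red circles), Th1 effector genes (orange squares) and Th17 lineage regulators (blue triangles); on the line both genotypes are equal. Ifng lies below the line (4.28 in Tet2-/- and 5.68 in wild-type cells), Tbx21 above it (3.30 and 2.56), and Stat4 near 0 (-0.29 and 0.09).

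Over the 4 groups Ifng, Eomes and Hlx shared 1 order of mean levels, and the other genes had orders of their own. Ifng ran from Th1 wild-type (11.73 ± 0.23 log2 units, SD, n = 2) over Th1 Tet2-/- (10.30 ± 0.17) to Th17 wild-type (6.04 ± 0.04) and Th17 Tet2-/- (6.03 ± 0.04), and of these neighbours the Th17 pair did not differ. Tbx21 ran from Th1 Tet2-/- (10.43 ± 0.01) over Th1 wild-type (10.23 ± 0.05) and Th17 wild-type (7.68 ± 0.30) to Th17 Tet2-/- (7.13 ± 0.25), where the step between the lineages was the one that passed. Eomes (8.24 to 6.85) had the same order as Ifng, with its Th1 Tet2-/- and Th17 wild-type means 1.26 apart (adjusted p = 9.85e-05). Runx3 ran from Th1 Tet2-/- (9.05 ± 0.05) to Th17 wild-type (7.89 ± 0.26), and its neighbours Th1 wild-type and Th17 Tet2-/- differed by 0.67 (adjusted p = 0.00761, beside 2.98% of genes called higher). Hlx also had the order of Ifng, from Th1 wild-type (6.54 ± 0.07) to Th17 Tet2-/- (5.78 ± 0.10), with no neighbours that passed: Th1 Tet2-/- and Th17 wild-type differed by 0.37 (adjusted p = 0.0510). Stat4 had its highest mean in Th17 Tet2-/- (10.17 ± 0.06) and its lowest in Th1 Tet2-/- cells (9.89 ± 0.21), and no pair of groups passed.

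Genes with the most similar profile were sought by the root mean square difference over the 8 arrays between profiles centred on their own mean, for the 4 genes that spanned at least 1 log2 unit. Nearest to Ifng were Gzmb, which encodes granzyme B (0.43 log2 units), Nkg7, a cytotoxic granule protein (0.53), the interferon-induced GTPase Iigp1 (0.92) and the granzyme B inhibitor Serpinb9 (1.03), and Tbx21 lay farther away (1.20). Gzmb read 11.52 log2 units in Th1 Tet2-/- and 11.90 in Th1 wild-type cells, a difference of -0.38 (adjusted p = 0.853), and Nkg7 read 11.09 and 11.13 in the same groups (-0.04, adjusted p = 0.987). These genes therefore resembled Ifng mainly by their step between Th1 and Th17 cells. Nearest to Tbx21 were the chemokine Ccl3 (0.21), Penk (0.25), Serpinb9 (0.35) and Gbp4 (0.35). Nearest to Eomes were Gbp11 (0.07), Tmem159 (0.12), Gadd45g (0.13) and Atp11a (0.13), and nearest to Runx3 were Wdtc1 (0.10), Zfpm1 (0.11), Nfkb2 (0.12) and Tnfsf10 (0.12).

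The receptors and kinases above the 5 factors were looked at as a list of 12 genes for IL-12, IL-18 and interferon-γ signalling, of which 11 were measured. Of these, 0 were called between genotypes in Th1 cells (median log2 difference 0.10, beside 0.01 over all genes) and 0 in Th17 cells (median 0.23, beside 0.02). Of all genes 0.00502% (Ifng alone) were called in Th1 and 0% in Th17 cells, so a list without Ifng could only count 0. Il12rb2, the inducible subunit of the IL-12 receptor, read 11.71 and 11.92 log2 units in Th1 Tet2-/- cells and 11.88 and 11.78 in Th1 wild-type cells, and the genotypes overlapped. Irf1, a factor induced by interferon-γ, read 9.61 and 9.62 in Th1 Tet2-/- cells and 9.25 and 8.84 in Th1 wild-type cells (0.57, SE 0.19, adjusted p = 0.824). Both Irf1 values in Tet2-/- cells lay above those in wild-type cells, on the opposite side from Ifng, where 32.7% of all genes did not overlap in either direction. In Th17 cells the smallest p of the list belonged to Ifngr1, the ligand-binding chain of the interferon-γ receptor (0.46, SE 0.13, adjusted p = 0.742). Between Th1 and Th17 Tet2-/- cells 3 were called higher and 4 lower, beside 3.29% and 7.14% of all genes. Between Th1 and Th17 wild-type cells 2 were called higher and 3 lower in limma's test, beside 3.17% and 5.3% of all genes. The 2 higher were Il12rb2 (1.65, adjusted p = 5.85e-06) and Irf1 (1.05, adjusted p = 0.00557). Among the 3 lower were the receptor chain Ifngr2 (-1.29, adjusted p = 9.49e-05) and Il27ra (-1.13, adjusted p = 0.000954).

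Of 12 other regulators of Ifng transcription, all measured, 0 were called between genotypes in either cell type (medians 0.04 in Th1 and 0.02 in Th17 cells). That count was again fixed, with 0.00502% of all genes (Ifng alone) called in Th1 and 0% in Th17 cells. Prdm1, which encodes the repressor Blimp-1, read 6.73 and 6.74 log2 units in Th1 Tet2-/- cells and 7.48 and 7.53 in Th1 wild-type cells (-0.77, SE 0.11, adjusted p = 0.176). Zfpm1, which encodes the Gata cofactor FOG-1, read 8.73 and 8.70 in Th1 Tet2-/- cells and 8.37 and 8.20 in Th1 wild-type cells (0.43, SE 0.13, adjusted p = 0.824). For both genes, named for the smallest p of the list, the genotypes did not overlap, beside 32.7% of all genes in either direction. In Th17 cells Bcl6, the transcriptional repressor that drives the follicular helper lineage, read 8.50 and 8.31 in Th17 Tet2-/- cells and 7.49 and 7.82 in Th17 wild-type cells (0.75, SE 0.14, adjusted p = 0.366). Between lineages in Tet2-/- cells 5 of the 12 were called higher in Th1 cells and 4 lower, beside 3.29% and 7.14% of all genes, with Runx1, the relative of Runx3, at -0.82 (adjusted p = 0.00343). In wild-type cells 3 of the 12 were called higher in Th1 cells and 4 lower, beside 3.17% and 5.3% of all genes. Prdm1 was higher by 1.64 (adjusted p = 2.90e-06), and Bcl6 (-1.18), the T cell factor Ets1 (-0.998) and Runx1 (-0.97) were lower (adjusted p 0.000227 to 0.00137). Prdm1 lay at or below the olfactory receptor percentile on every array except the 2 of Th1 wild-type cells, and Bcl6 on all 4 Th1 arrays, so the sizes of their differences may be compressed. Runx1 and Runx3 stood on opposite sides of the lineage contrast.

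Of 12 genes with Th1 effector functions, 11 were measured and 0 were called between genotypes in Th1 cells (2 higher and 9 lower by sign, median -0.05) and 0 in Th17 cells (median 0.01). Beside them, 0.00502% of all genes (Ifng alone) were called in Th1 and 0% in Th17 cells. This also fixed the counts between genotypes of the lists that follow. The chemokine Xcl1 read 8.72 and 8.46 log2 units in Th1 Tet2-/- cells and 7.79 and 7.89 in Th1 wild-type cells (0.75, SE 0.20, adjusted p = 0.824), and Fasl, the death receptor ligand, differed by -0.31 (SE 0.11, adjusted p = 0.824). Gzmb differed by -0.38, also with no call. Between the lineages 9 of 11 were called higher in Th1 Tet2-/- cells and 1 lower, Cxcr6 at -1.61, beside 3.29% and 7.14% of all genes. In Th1 wild-type cells 8 of 11 were called higher and 0 lower, beside 3.17% and 5.3% of all genes, and by sign 10 of 11 were higher in each genotype. In Tet2-/- and in wild-type cells the log2 differences were 4.66 and 4.84 for Gzmb, 4.87 and 4.53 for Nkg7, 2.91 and 2.52 for Ccl3 and 1.64 and 1.68 for Fasl. Of 6 measured Th17 lineage regulators 3 were called lower in Th1 cells of each genotype, beside 7.14% of all genes in Tet2-/- and 5.3% in wild-type cells. These were Maf (-3.52 in Tet2-/- and -3.65 in wild-type cells), Rora (-2.42 and -2.13) and Ahr (-1.86 and -1.66). Between Tet2 genotypes 0 of 6 were called. Fasl on all 4 Th17 arrays, Nkg7 on both Th17 Tet2-/- arrays, Gzmb on 1 of them, Cxcr6 and Maf on all 4 Th1 arrays and Ahr on 1 Th1 array of each genotype lay at or below the olfactory receptor percentile, so these lineage differences may be compressed too. Of 5 other Stat genes measured, 0 were called between genotypes and 1, Stat5b, between lineages (-0.54 in Tet2-/- and -0.65 in wild-type cells). Of 13 other T-box and Runx genes measured, 0 were called between genotypes and Runx1 was the 1 called between lineages. In either direction, 10.4% of all genes were called between lineages in Tet2-/- and 8.47% in wild-type cells. The T-box and Runx count was near that share.

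The genes beside each factor on the chromosome were then read, as 3 neighbours with a probeset on each side in the RefSeq gene table of GRCm38.p6. Of 36 neighbours 0 were called between genotypes in Th1 cells, with log2 differences from -0.44 to 0.24, and 0 in Th17 cells, from -0.15 to 0.31. Of all genes 0.00502% were called in Th1 cells, Ifng alone, and 0% in Th17 cells, so these counts do not set the neighbours apart. Next to Ifng on chromosome 10, Iltifb, a gene of the interleukin 22 group, differed by -0.35 and the kinase gene Dyrk2 by -0.44 in Th1 cells (adjusted p = 0.824 for each). Those 2 adjacent genes had the sign of Ifng at a smaller size, and the next genes out lay at 0.04 (Mdm1) and -0.10 (Cand1). Iltifb and Mdm1 on all 4 Th1 arrays, and Dyrk2 on both Th1 Tet2-/- arrays, lay at or below the olfactory receptor percentile. Beside Tbx21 on chromosome 11, Osbpl7 differed by 0.24 and Tbkbp1 by 0.23 (adjusted p = 0.853 for each). Between lineages in Tet2-/- cells 3 of 36 neighbours were called higher in Th1 cells and 7 lower, beside 3.29% and 7.14% of all genes, with Clic4, next to Runx3, at 0.91 and Tbkbp1, next to Tbx21, at 0.80. In wild-type cells 4 were called higher and 3 lower, beside 3.17% and 5.3% of all genes. Tbkbp1 was higher by 0.48 (adjusted p = 0.0277) and Clic4 by 0.84 (adjusted p = 0.000840). On the other side of Tbx21, Osbpl7 was lower, at -0.64 (adjusted p = 0.00700).

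**Figure D5:**
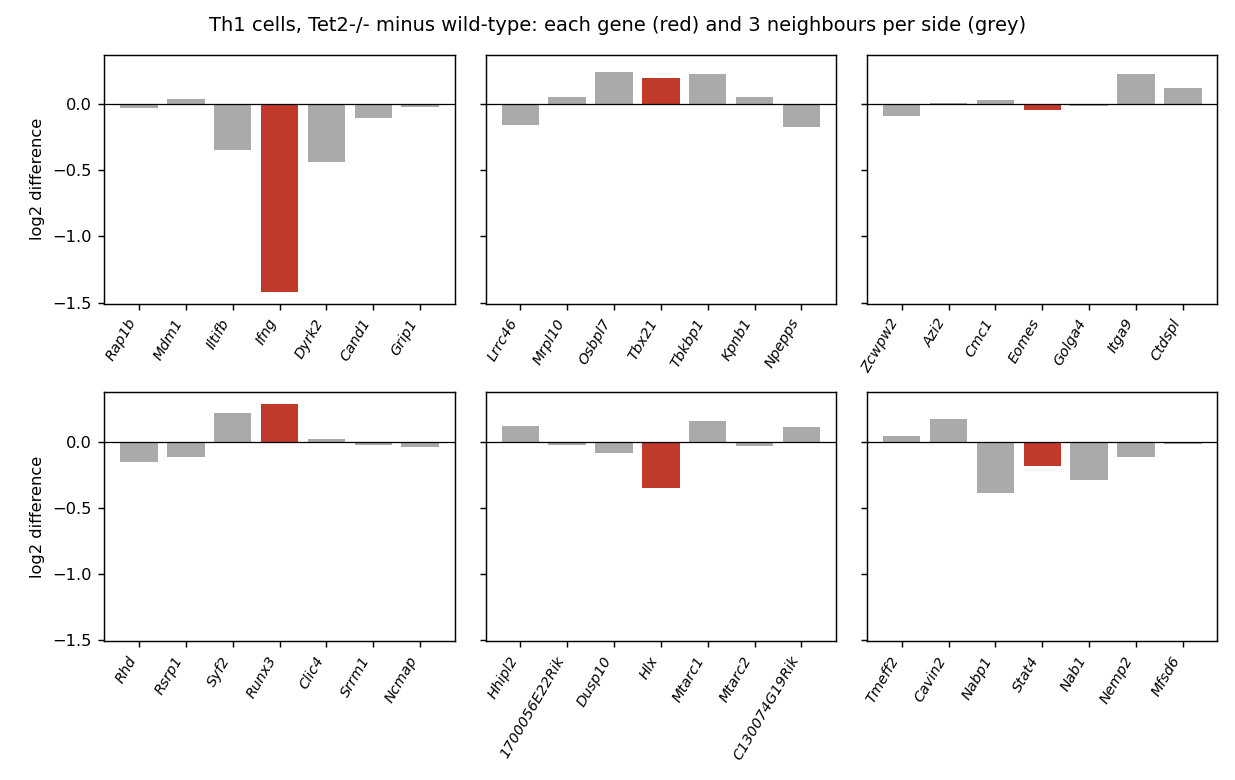
Log2 difference in Th1 cells, Tet2-/- minus wild-type, for each gene (red bar) and the 3 measured genes on either side of it (grey bars), in chromosome order and not to scale in distance. Ifng at -1.42 exceeds its neighbours Iltifb (-0.35) and Dyrk2 (-0.44) in size. None of the grey bars passed the test, nor did any other gene but Ifng.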

How the data were processed

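The authors deposited log2 values for 35556 probesets on each array. RMA and Partek are the tools named, per the submitters' processing notes, without versions. No source used here states the log base; the values' range fits log2. RMA normalizes across arrays and gives no detection call, so low levels are compressed towards background. Of the probesets, 21789 had 1 symbol, and for 999 genes with several the brightest by its mean was kept, which left 19938 genes. The fit used limma 3.58.1 (R 4.3.3), with 1 mean for each of the 4 groups over all arrays and variances moderated by eBayes with an intensity trend (4 residual and 8.44 prior degrees of freedom). All tests were two-sided, adjusted over all genes by the Benjamini-Hochberg method, and called at an adjusted p under 0.05. The fit was tested on simulated data. The number of arrays limits the precision. Up to 21 alternatives per contrast were computed.

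The 6 genes, the lists and the tests were chosen with earlier results of these data known. In each comparison the 6 genes were named, with up to 4 called members of each list, or the 1 or 2 with the smallest p where none was called; Il12rb2, Gzmb and Cxcr6 were added where a count or a likeness turned on them, after their values were seen. Neighbours were named by place or call, also after their values were seen. Likeness left out predicted genes, clones and small RNAs.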

Additional observations from a re-analysis of the deposited data

Results flagged for a closer look

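Tbx21 was picked out because its genotypes lay apart in opposite directions in the 2 cell types. Both Tet2-/- arrays were above both wild-type arrays in Th1 cells (0.20), and both were below in Th17 cells (-0.54). The difference of these differences, Th1 minus Th17, was 0.74 (95% interval 0.25 to 1.23), and it did not pass limma's test over all genes (unadjusted p = 0.00609, adjusted p = 0.999). Over 20 alternatives it ran from 0.53 to 1.14, with adjusted p from 0.634 to 1.00. Of all genes, 961 (4.82%) showed the same arrangement of arrays. With Y-linked level added to the fit the difference of the differences was 0.91. Without the 2 Th17 arrays of extreme Y-linked level it was 1.14, with 1 array per Th17 group. Beyond these values, the part that the sex-linked transcripts of the Th17 arrays have in it was not tested.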

How the results depend on the processing

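Over 619 values of single genes under the alternatives, 585 kept their direction and their side of the threshold. A further 21 kept the direction but were no longer called, and 13 turned sign. All 13 were of results with a log2 value from -0.0927 to 0.0926. The number of the 6 genes called between genotypes in Th1 cells, 1, was 0 with no moderation of the variance (Ifng adjusted p = 0.921), with all probesets tested (0.353), with the Th1 arrays fitted alone (0.161), without the 2 Th17 arrays of extreme Y-linked level (0.0838), and when single arrays were left out it ranged from 0 to 1. The log2 difference of Ifng ran from -1.58 to -1.26, with adjusted p from 0.00129 to 0.921. Between lineages the count of 5 was 2 with no moderation in each genotype. The fits with no moderation, with 1 comparison alone or without arrays have fewer degrees of freedom by construction. With Y-linked level added to the fit Eomes turned to 2e-04 in Th17 cells and to -0.037 in the interaction. Leaving out single arrays, the Th17 difference ran from -0.0451 to 0.0165 for Ifng, -0.247 to 0.0614 for Eomes and -0.112 to 0.0301 for Hlx, the interaction from -0.103 to 0.205 for Eomes and -0.0927 to 0.278 for Runx3, and Stat4 between wild-type lineages from -0.0374 to 0.216. The cause of these turns was not tested.

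Replicate numbers gave no sign of pairing: within a cell type, deviations of same-numbered arrays from their group means correlated at -0.07 in Th1 and -0.08 in Th17 cells across genes, which are not independent. With the number as a replicate block, Ifng in Th1 cells stayed called (-1.42, adjusted p = 0.0307), 4 genes were called between Tet2-/- lineages, where Hlx was lost (0.43, adjusted p = 0.128), and 5 between wild-type lineages, and Stat4 between wild-type lineages turned to -0.0526. Fitting only the arrays compared was not run for the interaction, which uses all of them, and Hlx had no value with dim genes left out. Signal over background limits what can be said of Hlx in all groups, of Ifng in Th17 cells and of several list and neighbour genes in the groups where they were dim.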
